A study of Mus musculus with 2 samples.

Results

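The core-binding factors of the E10.5 mouse limb were described from the 4 genes that encode them: Runx1, Runx2 and Runx3, which make the DNA-binding alpha subunits, and Cbfb, which makes their shared beta subunit. They were chosen by name, through the Ensembl identifiers that map to these symbols, and not by any measured value. Earlier results of these data were known when these genes were chosen. They are 4 of 43346 Ensembl rows in each gene table and 33 of 129984 rows in each transcript table. The tissue was whole limb of B6NCrl embryos at 10.5 days, with males and females pooled, and its 2 biological replicates formed a single group. The limbs of 69 embryos were pooled in replicate 1 and those of 51 in replicate 2, and no treatment, genotype or other contrast was labelled. Total RNA above 200 nt was sequenced from 10 ng per library with synthetic spike-in RNAs, and expected counts summed to 40509328 and 43983028. An expected count is an estimated number of reads, and TPM is a level per length that can be compared between genes.

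A RUNX protein binds DNA through its Runt domain and activates or represses transcription according to the cofactors it recruits. CBFB does not bind DNA itself but raises the affinity and stability of its RUNX partner. Runx1 is required for the first definitive blood stem cells, Runx2 for osteoblasts and for the maturation of cartilage, and Runx3 for proprioceptive sensory neurons and several lymphocyte classes. Each Runx gene is transcribed from a distal and a proximal promoter, and the proteins from the 2 promoters differ at their N-terminus.

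The coding starts below show that difference at the level of the transcript, because the promoter shares reported further on rest on it. Sequences came from the GENCODE M21 transcripts on GRCm38 and run 5′ to 3′. Capitals mark the coding bases that belong to that form alone, and the lower-case letters are the first 18 bases shared by both forms of the gene.
Runx1 distal start (Runx1-201): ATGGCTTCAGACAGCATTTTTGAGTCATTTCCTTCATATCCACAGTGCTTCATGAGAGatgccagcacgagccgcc
Runx1 proximal start (Runx1-202): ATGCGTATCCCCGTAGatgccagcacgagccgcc
Runx2 distal start (Runx2-202): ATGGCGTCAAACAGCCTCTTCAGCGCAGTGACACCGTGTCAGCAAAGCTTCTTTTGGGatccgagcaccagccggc
Runx2 proximal start (Runx2-203): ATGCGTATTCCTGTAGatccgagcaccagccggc
Runx3 distal start (Runx3-201): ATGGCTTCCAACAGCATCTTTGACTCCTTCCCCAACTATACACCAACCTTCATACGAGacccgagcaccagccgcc
Runx3 proximal start (Runx3-202): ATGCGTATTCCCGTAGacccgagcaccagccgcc
A distal form begins with 58 coding bases of its own and a proximal form with 16. Between genes, the proximal starts were identical at 14 or 15 of 16 positions, and the distal starts at 33 to 41 of 58.

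Cbfb stood far above all 3 Runx genes in both libraries. Cbfb (ENSMUSG00000031885.9, GRCm38 chr8:105170674-105217989, plus strand) had 54.33 TPM in replicate 1 and 71.2 in replicate 2, from 3771 and 5151 expected counts. The deposited TPM intervals, whose level is not stated, ran from 51.9 to 55.5 and from 68.2 to 72.3. Its mean was 62.8 ± 11.9 TPM (SD, n = 2, as for every value given with ±). Its TPM in each library lay at percentiles 74.6 and 79.4 of the expressed protein-coding genes, whose median over both libraries was 21.3 TPM.

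Runx2, the skeletal member, had the highest TPM of the alpha subunits but was close to the limit used for expression, a TPM of 1 in both libraries. Runx2 (ENSMUSG00000039153.12, chr17:44495987-44814797, minus strand) had 1.12 TPM in replicate 1 and 3.82 in replicate 2, from 113 and 377 expected counts. Its deposited intervals were 1.25 to 2.50 and 3.42 to 5.38, and replicate 2 was the higher. In replicate 1 the interval lay wholly above the TPM it belongs to.

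Runx1, the blood member, had 0.87 TPM in replicate 1 and 1.07 in replicate 2, from 106 and 135 counts. Runx1 (ENSMUSG00000022952.12, chr16:92601466-92826149, minus strand) thus straddled the expression limit, with intervals of 0.842 to 1.66 and 1.02 to 1.85 that overlapped. Runx3 (ENSMUSG00000070691.6, chr4:135120652-135177990, plus strand) was near the floor of the measurement, with 0.06 and 0.04 TPM from 6 and 4 counts. The 95% exact Poisson intervals of those counts were 2.20 to 13.1 and 1.09 to 10.2, which cover counting error only. Its deposited TPM intervals, 0.185 to 1.48 and 0.164 to 1.41, lay above its TPM in both libraries, and its posterior mean over the libraries was 0.74 TPM against 0.050 ± 0.0141 for TPM.

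Of the 4 genes, Runx2 and Cbfb passed the expression limit in both libraries, against 55.2% of 21474 protein-coding rows and 31.1% of all Ensembl rows. At a limit of 2 TPM only Cbfb passed.

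**Figure D1:**
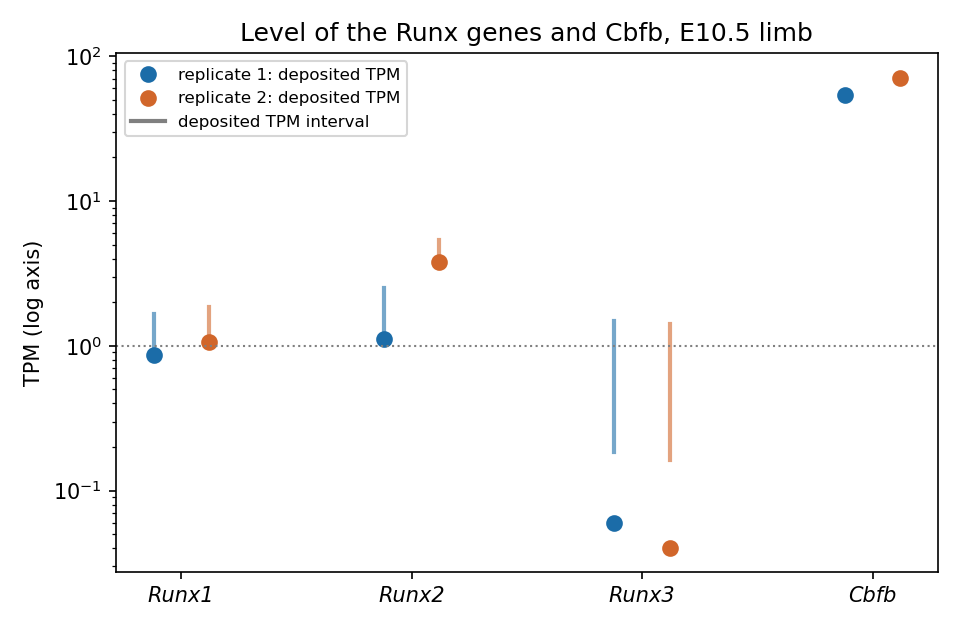
Level of each gene in TPM on a log axis, with replicate 1 in blue and replicate 2 in orange. Points are the deposited TPM, vertical lines the deposited TPM intervals, and the dotted line marks 1 TPM. Cbfb lies at 54.33 and 71.2 TPM, Runx1 and Runx2 lie near the dotted line in replicate 1, and the points of Runx3 lie below their own intervals.

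The order of the levels was Cbfb, Runx2, Runx1, Runx3 in both libraries. A pair of genes was called different where each library kept the deposited intervals apart and the same gene was higher in each. By that rule 3 of 6 pairs were called, all of them between Cbfb and a Runx gene. Cbfb was 48.5-fold and 18.6-fold above Runx2 in replicates 1 and 2, and 62.4-fold and 66.5-fold above Runx1. Cbfb exceeded Runx3 by 905.5-fold and 1780-fold, ratios that rest on the 6 and 4 Runx3 counts and on a TPM below its own interval. With posterior mean TPM they were 69.7-fold and 98.9-fold, and those over Runx2 were 29.3-fold and 16.1-fold. The neighbours Runx2 and Runx1 differed 1.29-fold in replicate 1 and 3.57-fold in replicate 2, and their intervals overlapped in replicate 1. With Poisson intervals on the counts in place of the deposited ones, 5 of 6 pairs were called, and Runx1 against Runx2 was the exception.

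Cbfb RNA also exceeded the sum of the 3 alpha subunits. Their summed level was 2.05 TPM in replicate 1 and 4.93 in replicate 2, so that Cbfb was 26.5-fold and 14.4-fold above the sum. Runx2 made up 54.6% of the sum in replicate 1 and 77.5% in replicate 2. Runx1 made up 42.4% and 21.7%, and Runx3 2.93% and 0.811%. With posterior mean TPM the Runx3 part was 20.2% and 11.0%, and Cbfb was 14.1-fold and 10.8-fold above the sum. These are ratios of RNA in whole tissue, in which fewer cells of a type and less RNA per cell cannot be told apart.

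Runx2 differed most between the libraries of the 3 members tested, and Cbfb differed by less. Differences are given as log2 CPM (counts scaled to library size) after TMM scaling, replicate 2 minus replicate 1, with a 95% exact binomial interval that covers counting error only. The design has 1 library a side, so no p-value is given: a two-sided exact sign-flip test of 2 libraries cannot go below 0.5. Runx2 was higher in replicate 2 by 1.53 (1.23 to 1.86), Cbfb by 0.25 (0.19 to 0.31) and Runx1 by 0.15 (-0.23 to 0.53). The interval of Cbfb excluded 0 and that of Runx1 did not. Runx3 lay under the filter of a mean expected count of 10 and its counting interval ran from -3.05 to 1.29.

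A gene was called at a 2-fold difference. Of the 3 members tested, Runx2 alone was called, and it was higher in replicate 2. Of 16860 genes tested, 4.03% were called higher and 1.48% lower, and the median difference was 0.01. Among the 4846 genes with a mean count of 100 to 1000, the range that holds Runx1 and Runx2, 2.89% were called higher, and 1.05% were higher by as much as Runx2 or more. Genes with 1000 counts or more, as Cbfb, were called higher in 0.27% of cases.

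**Figure D2:**
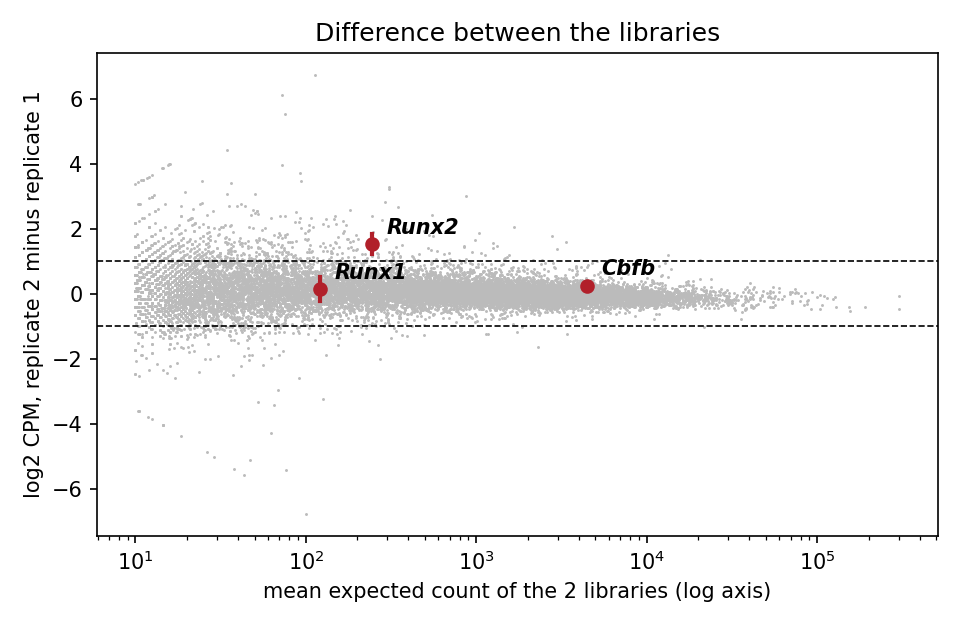
Log2 difference between the libraries (replicate 2 minus replicate 1) against the mean expected count on a log axis, for the Ensembl genes with a mean count of at least 10 (grey). Red points are Runx1, Runx2 and Cbfb with 95% counting intervals, and dashed lines mark 2-fold. Runx2 lies above the upper dashed line at 1.53, whereas Runx1 and Cbfb lie between the lines.

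Cartilage markers were mostly higher in replicate 2, as Runx2 was, whereas the muscle and ectoderm lists were mixed. Macrophage markers were also mostly higher, at 9 of 11 tested (median difference 0.44). So were megakaryocyte markers at 5 of 7 (0.23) and limb mesenchyme markers at 6 of 9 (0.25). Erythroid markers were lower in 8 of 8, endothelial markers in 5 of 8 and sensory neuron markers in 5 of 6. Over all 16860 genes tested, 51.9% were higher in replicate 2, and 4.03% were called higher and 1.48% lower. Among genes with 10 to 100 counts, 11.3% were called higher. Of 11 cartilage markers, 9 were tested, 8 were higher in replicate 2 and 4 were called, with a median difference of 0.86. Their summed level was 218 TPM in replicate 1 and 470 in replicate 2. The cartilage collagen gene Col2a1 went from 60.55 to 157.5 TPM, a difference of 1.18, and the collagen IX genes Col9a3 and Col9a2 differed by 3.03 and 3.23. Acan, which encodes aggrecan, was higher by 2.31 on 5 and 37 counts. All 5 muscle precursor markers were tested, 3 were higher and 2 lower, with a median difference of 0.71. Of these, 2 were called higher, Myod1 at 3.28 and Myog at 2.83, both regulators of muscle differentiation. The precursor genes Lbx1 and Pax3 were the lower ones, at -0.82 and -0.26. The summed level of all 5 muscle precursor markers was 25.6 TPM in replicate 1 and 50.7 in replicate 2. Of 9 ectoderm markers, 3 were higher and 6 lower, with a median difference of -0.16 and summed levels of 266 and 255 TPM. Krt14, a keratin of basal epidermis, was called higher by 2.02, while the simple-epithelium keratins Krt18 and Krt8 and the ridge signal Fgf8 had differences of -0.70, -0.67 and -0.54. The pools also differed in limb identity genes, which were named after their values were seen: the hindlimb genes Tbx4 and Pitx1 had differences of 0.94 and 0.79, and the forelimb gene Tbx5 of -0.26, all under 2-fold. The part of these tissues in the Runx2 difference was not tested, and pool, library and any batch cannot be told apart.

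Both promoters of Runx1 were represented. Transcripts were grouped where their annotated 5′ ends lay within 1000 nt of each other. The distal group took 21.6% of Runx1 TPM in replicate 1 and 29.9% in replicate 2, from 28.9 and 51.1 counts. The proximal group took 70.5% and 63.6%, from 73.7 and 83.1 counts. The third group, whose 5′ ends lie just inside the proximal one, took the remaining 7.95% and 6.54%, on 3.41 and 0.8 counts. The proximal group was therefore the larger in both libraries, on 106 and 135 counts for the whole gene.

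In Runx2 the difference between the libraries lay in the proximal group. Transcripts grouped as proximal had 84.0 counts in replicate 1 and 366.5 in replicate 2, or 66.1% and 91.6% of Runx2 TPM. Distal transcripts had 28.9 and 10.2 counts, or 33.9% and 8.40%. These TPM shares include short transcripts on few counts. Runx2-209, a fragment incomplete at its 5′ end, gave 0.26 of the 0.74 proximal TPM in replicate 1. Runx2-205, another such fragment, gave 0.85 of the 3.49 proximal TPM in replicate 2. Both fragments begin downstream of the proximal coding start, so they cannot show which promoter was used. The retained-intron Runx2-208 gave 0.21 of the 0.38 distal TPM in replicate 1 and 0.2 of 0.32 in replicate 2. Runx2-203, the full-length proximal transcript of 514 codons, had 78.34 and 315.31 counts, with TPM intervals of 0.208 to 0.581 and 1.25 to 1.84. Runx2-202, the full-length distal transcript of 528 codons, had 26.32 counts in replicate 1 and 0 in replicate 2. The tables give those 2 values posterior SDs of 14.1 and 19.1 counts, and its TPM intervals overlapped with upper bounds of 0.321 and 0.382. By posterior mean TPM the distal share of the gene was 46.2% and 28.2%, and by counts 25.6% and 2.71%. The distal form was therefore not distinguishable between the libraries at this depth.

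All Runx3 counts were assigned to Runx3-201, the distal transcript of 423 codons. By posterior mean TPM that transcript held only 7.79% and 5.56% of the gene, so 6 and 4 counts do not settle which Runx3 promoter was used.

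**Figure D3:**
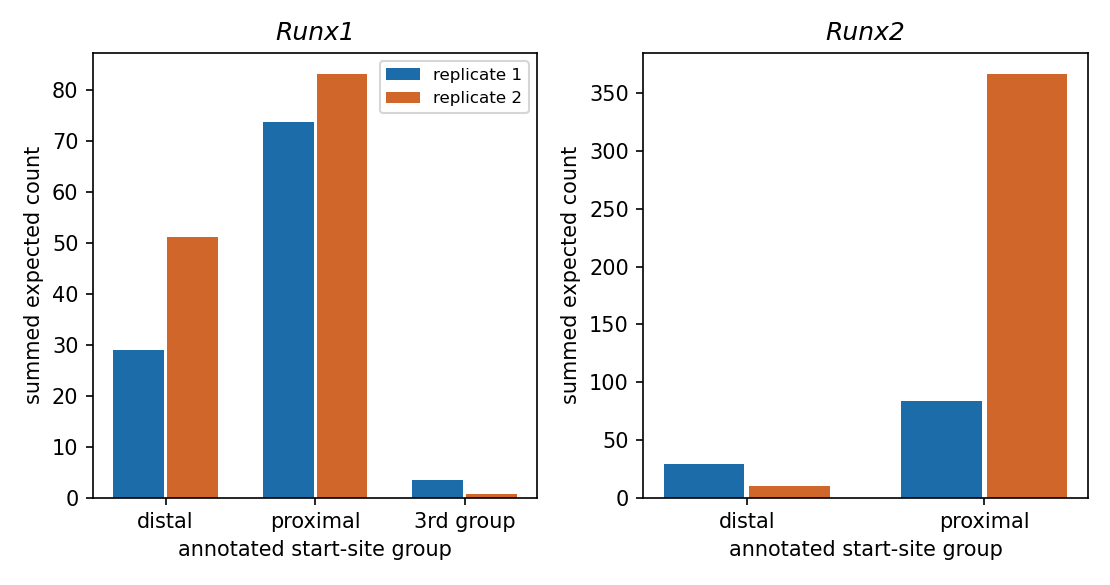
Summed expected counts of the annotated start-site groups of Runx1 (left) and Runx2 (right), with replicate 1 in blue and replicate 2 in orange. The proximal group of Runx2 goes from 84.0 to 366.5 counts, whereas its distal group has 28.9 and 10.2. The vertical axes of the panels differ.

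The distal promoters of the 3 Runx genes are shown next, because they share a sequence that the available proximal windows, those of Runx1 and Runx3, lack. Windows cover 250 bases before to 50 after the RefSeq start on GRCm38.p6, and capitals mark matches to the Runt-domain core motif TGTGGT or its reverse complement ACCACA.
Runx1 distal window, chr16:92826025-92826324, minus strand: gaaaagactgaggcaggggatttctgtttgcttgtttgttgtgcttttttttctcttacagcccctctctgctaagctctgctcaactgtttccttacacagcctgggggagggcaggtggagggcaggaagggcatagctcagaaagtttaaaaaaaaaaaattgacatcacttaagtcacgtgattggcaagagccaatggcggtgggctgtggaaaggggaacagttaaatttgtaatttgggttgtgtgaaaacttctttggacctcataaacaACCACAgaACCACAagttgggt
Runx2 distal window, chr17:44814578-44814877, minus strand: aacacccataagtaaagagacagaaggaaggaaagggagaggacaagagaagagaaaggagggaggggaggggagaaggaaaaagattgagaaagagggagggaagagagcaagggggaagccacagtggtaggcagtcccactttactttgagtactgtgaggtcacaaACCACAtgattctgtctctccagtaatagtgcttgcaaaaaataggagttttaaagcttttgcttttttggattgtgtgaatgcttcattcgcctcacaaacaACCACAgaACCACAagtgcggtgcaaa
Runx3 distal window, chr4:135120395-135120694, plus strand: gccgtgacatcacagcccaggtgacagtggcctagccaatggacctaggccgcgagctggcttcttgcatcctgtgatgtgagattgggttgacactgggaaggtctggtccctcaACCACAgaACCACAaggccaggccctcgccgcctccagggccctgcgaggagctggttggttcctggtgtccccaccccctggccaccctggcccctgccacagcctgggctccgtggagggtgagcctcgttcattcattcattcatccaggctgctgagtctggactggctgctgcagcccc
The windows hold 2 matches in Runx1, 3 in Runx2 and 2 in Runx3. The proximal windows of Runx1 and Runx3 and the window of Cbfb hold 0. Of 32851 promoter windows of the same length, 16.8% hold at least 1 match and 1.81% at least 2. The 3 distal windows have in common the 18-base run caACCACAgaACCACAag, which carries a pair of matches. It lies 26 and 21 bases past the start in Runx1 and Runx2, and 136 bases before it in Runx3. The same run is in 4 of the 32851 windows, and the fourth belongs to Gm16225, a noncoding gene 205 nt from the Runx3 start on the other strand, with 0 counts in both libraries. By their annotated starts, the windows of Gm16225 and Runx3 overlap over this run, so the fourth window holds the same genomic copy. These are matches of letters and no binding was measured.

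The distal windows of Runx1 and Runx2 held few CpG dinucleotides, 2 each, against 8 in the distal window of Runx3, 35 and 45 in the proximal windows of Runx1 and Runx3, and 30 in Cbfb. The median over all windows was 7. Their GC contents were 45% and 45.3%, against 63.7% in the distal window of Runx3 and a median of 52.7% over all windows. In the proximal windows of Runx1 and Runx3 and in Cbfb it was 69% to 77.3%.

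The leading Runx1 transcript was the proximal Runx1-202, with 58.26% of the gene in replicate 1 and 46.16% in replicate 2. It encodes 387 codons and lacks a 192-nt coding exon (chr16:92644154-92644345). The distal Runx1-201, with 465 codons, took 21.53% and 29.85%. The 451-codon Runx1-203 took 7.77% and 0%, and the fragment Runx1-205, annotated as incomplete at its 5′ end, took 0% and 6.39%. Runx1-206, which retains an intron and has no coding sequence, took 12.44% and 17.6%. Among protein-coding transcripts, those with the 192-nt exon held 33.8% and 36.4% of TPM. Those counted without it, at 0.51 and 0.56 TPM, include Runx1-205 at 0 and 0.07. The annotated coding sequence of that fragment ends before the exon, so it cannot show whether the exon was skipped.

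Runx2-203 led the 13 Runx2 transcripts with 41.16% and 46.7%. Its lead was larger by counts, at 76.5% on average, and smaller by posterior mean TPM, at 28.3%. Runx2-209 took 22.78% in replicate 1 on 4.05 counts, and Runx2-205 took 22.24% in replicate 2 on 8.05 counts. Both are annotated as incomplete at the 5′ end. Runx2-208, a short transcript with a retained intron, took 18.92% and 5.36% on 2.6 and 2.61 counts. The 492-codon Runx2-210 took 0% and 16.31% on 0 and 25.37 counts, with a posterior SD of 9.06 counts in replicate 2. By posterior mean TPM its shares were 4.74% and 7.91%. Runx2-212, annotated as a target of nonsense-mediated decay, took 1.96% and 6.16%.

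Cbfb RNA was spread over 2 main splice forms in nearly the same shares in both libraries. Cbfb-202, with 182 codons, took 53.65% in replicate 1 and 55.12% in replicate 2. Cbfb-203, with 148 codons, took 38.51% and 36.88%, and Cbfb-201, with 187 codons, 6.3% and 5.84%. The deposited TPM intervals of Cbfb-202 (25.3 to 30.9 and 34.4 to 41.3) lay above those of Cbfb-203 (17.7 to 23.4 and 22.1 to 28.9) in each library. For comparison, 8766 genes with more than 1 transcript and at least 100 counts had a median absolute change in the leading share of 2.99 points between the libraries, and 92.1% kept the same leading transcript. That set begins far below the 3771 and 5151 counts of Cbfb, and genes of like depth were not taken separately.

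The Cbfb forms differ in the exons printed here. Capitals mark the 31-base extension of exon 5 that the 182-codon form carries.
Cbfb exon 3, chr8:105178593-105178709, plus strand: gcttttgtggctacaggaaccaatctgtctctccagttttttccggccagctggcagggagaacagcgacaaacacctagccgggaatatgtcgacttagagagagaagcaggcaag
Cbfb exon 5 with its extension, chr8:105202452-105202578, plus strand: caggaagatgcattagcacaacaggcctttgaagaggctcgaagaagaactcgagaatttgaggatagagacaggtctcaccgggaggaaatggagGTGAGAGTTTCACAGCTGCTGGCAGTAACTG
Exon 3 is 117 nt long and keeps the reading frame when skipped. Transcripts with it held 61.5% and 63.1% of the TPM of coding transcripts, and Cbfb-203, the form without it, held the other 38.5% and 36.9%. Cbfb-203 also starts 271 nt downstream of Cbfb-201, so its share cannot be assigned to the exon alone. The 31 nt are no multiple of 3, so the long exon 5 changes the frame and the C-terminal residues. The long exon 5 was in 53.7% and 55.2%, the short one in 44.8% and 42.8%, and transcripts without exon 5 held 1.55% and 1.98%.

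**Figure D4:**
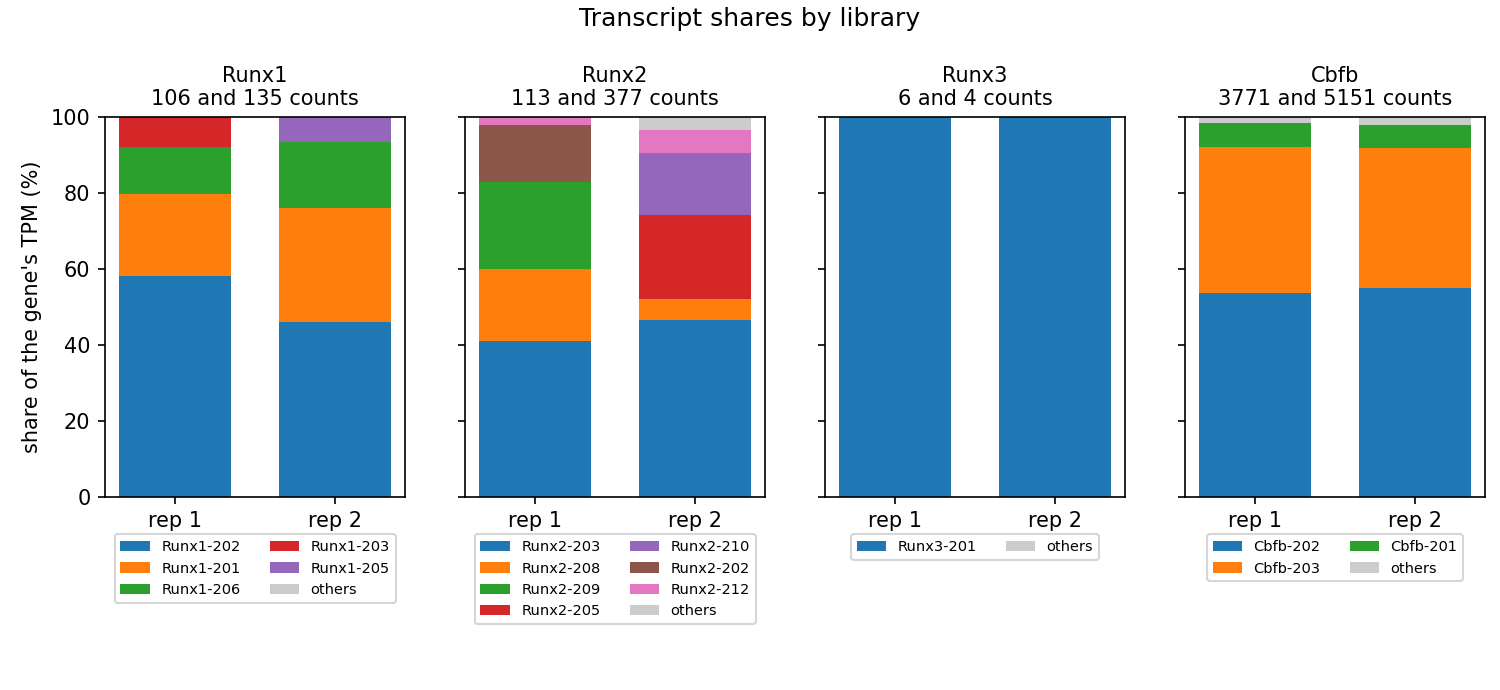
Share of each gene's TPM taken by its transcripts in percent, with replicate 1 and replicate 2 as stacked bars. Transcripts with at least 5% in either library are coloured and the rest are grey. Runx3 rests on 6 and 4 counts, the shares of Runx2 change most between the libraries, and those of Cbfb are nearly the same.

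Other genes lie across the Runx loci, and no source used here says whether counting used strand, so reads of such pairs may not be separable. Supt3, which encodes a subunit of the SAGA complex, overlaps the distal part of Runx2 on the opposite strand and had 18.11 and 20.98 TPM. Its difference was 0.09. The proximal transcripts of Runx2 lie outside Supt3. Runx2os1, an antisense gene across the proximal start, had 17.1 and 13.3 counts, a difference of -0.52. Runx2os2 had 1 and 11 counts, Runx2os3 1 and 0, and the Runx1 antisense gene Gm26626 1 and 2. In 4 further overlapping noncoding genes, Gm16224, n-R5s27, Gm22063 and Gm24629, 0 counts were listed. The part of reads from these genes in the Runx2 values was not tested.

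The cofactors of RUNX proteins were expressed throughout. This and the list counts below stand beside 55.2% of protein-coding rows and 31.1% of all Ensembl rows that passed the limit. All 15 corepressors passed the expression limit, led by the deacetylase gene Hdac1 at 270 ± 18.2 TPM and the Groucho-related Aes at 261 ± 43.7. Hdac3 and Sin3b, which encode further parts of deacetylase complexes, were at 152 ± 5.92 and 122 ± 5.37, and the Groucho gene Tle4 was lowest at 12.3 ± 0.834. None of the 15 was called between the libraries, and their median difference was 0.04. The ETO family, whose members repress transcription and are known as RUNX1 fusion partners in leukaemia, was expressed in 3 of 3. Cbfa2t2 had 47.1 ± 3.25 TPM, Cbfa2t3 had 2.49 ± 0.481, and Runx1t1 had 11.48 in replicate 1 and 20.18 in replicate 2, a difference of 0.66 that was under 2-fold.

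All 12 coactivators and all 11 modifying enzymes were likewise expressed, with no call and median differences of 0.02 and -0.07. Carm1, an arginine methyltransferase, led the coactivators at 77.0 ± 8.49 TPM, followed by the Hippo effector Yap1 at 44.0 ± 3.68 and the BMP signal transducers Smad5 at 39.5 ± 6.24 and Smad1 at 30.1 ± 1.70. Wwtr1, the relative of Yap1, was lowest at 7.93 ± 1.46. Nedd4, a ubiquitin ligase, led the enzymes at 526 ± 76.2, with the kinase Cdk1 at 461.5 ± 6.96 and the ligase Stub1 at 252.5 ± 6.46. The ligase Wwp1 was lowest at 7.45 ± 0.679.

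Skeletal partners of RUNX2 were mostly expressed, at 11 of 14. Sox9, the master factor of cartilage, had 71.03 TPM in replicate 1 and 141.55 in replicate 2, a difference of 0.86 that was under 2-fold. Atf4, an osteoblast cofactor, was at 93.4 ± 0.474, and Twist2 and Zfp521, which restrain RUNX2, were at 36.6 ± 4.04 and 32.2 ± 5.52. Nkx3-2, a repressor of Runx2 in cartilage, was lowest at 0.255 ± 0.233 TPM. Nkx3-2 was also the called member of this list, higher by 1.65 (0.46 to 4.07) on 4 and 19 counts.

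Bone and hypertrophic cartilage genes were mostly at or near 0. Of 15 such genes, 5 passed the expression limit, and 6 passed the count filter. Col1a1, the main collagen of bone and of other connective tissue, had 77.6 ± 13.6 TPM, and Alpl, the bone phosphatase, 5.46 ± 1.63. Spp1, which encodes osteopontin, had 1.63 TPM in replicate 1 and 5.38 in replicate 2 and was called, higher by 1.55 (1.15 to 2.04) on 57 and 196 counts. Vegfa was at 2.12 ± 0.608. The fifth, named after its values were seen, was the osteoblast factor Sp7 at 1.38 TPM on average. Phex, a phosphate regulator of bone, was called higher by 1.16 on 6 and 18 counts, with a counting interval of -0.01 to 3.01. Panx3 and Bglap2 had 0 counts in both libraries, Bglap2 being named after its values were seen.

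Over all 7 lists, 66 of 82 cofactor, partner and target genes were expressed, against 55.2% of protein-coding rows. Of the 72 that passed the count filter, 39 were higher and 33 lower in replicate 2, with a median difference of 0.02. At 2-fold, 3 were higher (Nkx3-2, Spp1 and Phex) and 0 were lower, against 4.03% and 1.48% of all genes, and 11.3% higher among genes with 10 to 100 counts, the range of Nkx3-2 and Phex. Nkx3-2 and Phex rested on low counts, and a filter at 100 counts left Spp1 alone. Using no filter gave 6 higher and 2 lower, scaling to spike-ins gave 5 higher, and TPM with a pseudocount of 1 gave 1 higher.

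**Figure D5:**
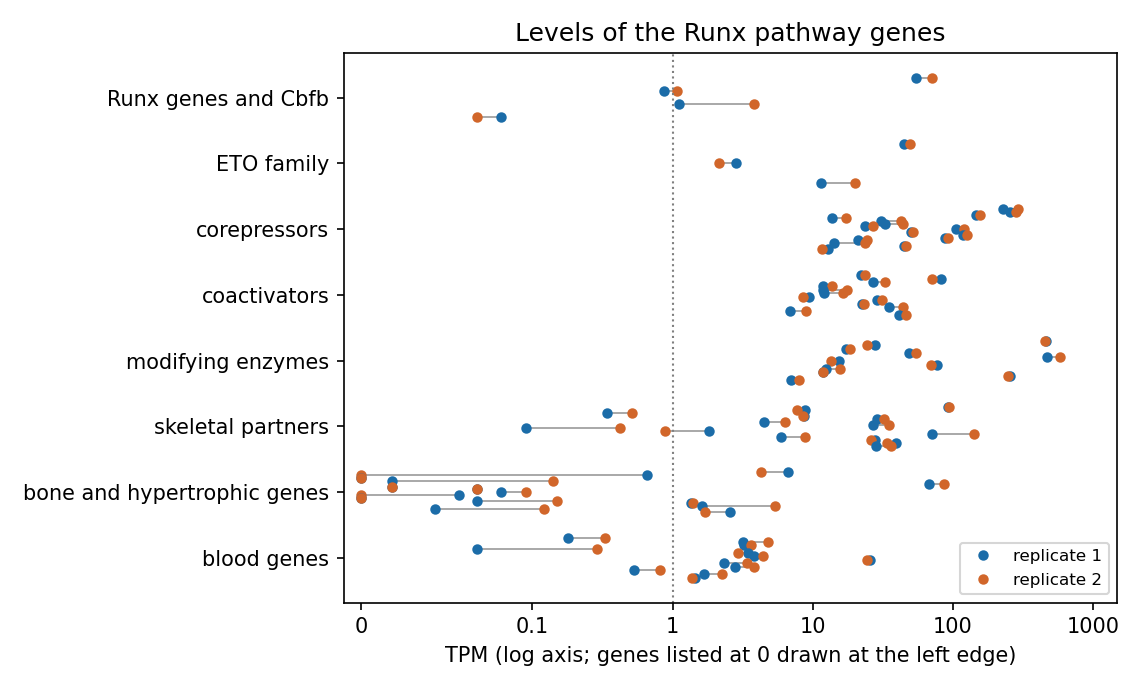
TPM of each gene of the 7 lists and of the Runx genes and Cbfb on a log axis. A grey line joins replicate 1 (blue) and replicate 2 (orange) of a gene, and the dotted line marks 1 TPM. Corepressors, coactivators and modifying enzymes all lie above the line, whereas 10 of 15 bone and hypertrophic genes do not lie above it in both libraries.

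Blood genes linked to RUNX1 were expressed in 9 of 12, with no call among the 11 tested and a median difference of 0.04. Lmo2, a blood and endothelial factor, led at 25.1 ± 0.622 TPM. The platelet integrin gene Itga2b, the macrophage receptor gene Csf1r and the progenitor factor Gata2 followed at 4.13 ± 0.445, 3.96 ± 1.12 and 3.44 ± 0.304. Gfi1 was lowest at 0.165 ± 0.177. Macrophages and megakaryocytes are blood lineages known to use Runx1. Of 12 macrophage markers, 8 were expressed, led by C1qb at 8.87 and 8.88 TPM, with a summed level of 33.4 and 45.9. Of 8 megakaryocyte markers, 5 were expressed, led by Pf4 at 30.0 ± 5.48, and Gp1ba was called higher by 1.79 on 10 and 45 counts. Their summed levels were 39.8 and 51.4 TPM. All 8 erythroid markers were lower in replicate 2, with a median difference of -0.46, and none was called. Which cells made the Runx1 RNA was not tested.

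Markers of the neurons that use Runx3 were scarce. Of 12 sensory neuron markers, 2 were expressed in both libraries, the general neuronal genes Tubb3 and Elavl4 at 6.17 ± 0.587 and 4.17 ± 0.127 TPM. Of the 6 tested, 1 was higher and 5 lower, with a median difference of -0.23. Ntrk2 was called higher by 1.30, and Pou4f1 was called lower, at -1.97, with 2.23 TPM in replicate 1 and 0.59 in replicate 2, against 4.03% and 1.48% of all genes. Pvalb had 0 counts in both. Markers of the labelled tissue were present: all 9 limb mesenchyme genes were expressed, from Msx1 at 307 ± 5.85 TPM down to Twist1 at 27.0 ± 1.34. All 8 endothelial markers were expressed too, led by Egfl7 at 81.2 ± 0.735, with a median difference of -0.07.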

How the data were processed

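Total RNA-seq of 2 limb pools was read from the deposited gene and transcript tables. The authors deposited expected counts (estimated reads, not normalized), TPM with posterior means and interval bounds, and each transcript's percent of its gene's TPM. Per the sample text files, tables were quantified on mm10 with GENCODE M4. For the aligner, the quantifier, versions and strand use: not given in the sources used here. Spike-ins took 3.89% and 3.45% of expected counts. Rows naming no gene (0.297% and 0.293%) stayed out.

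Symbols and sequences came from GENCODE M21 on GRCm38 (the mm10 assembly), promoters from RefSeq. Rounded expected counts were scaled by TMM in edgeR 4.0.16 (R 4.3.3), with a prior count of 2, a mean count of at least 10 and calls at 2-fold. DESeq2 1.42.0 gave other size factors. Intervals are exact at 95% and cover counting error only. Python 3.11.15 with scipy 1.17.1 did the rest. Of the steps, only the TMM-scaled difference was tested on simulated data, which held counting noise alone. The libraries differed beyond sampling noise (chi-square per degree of freedom 31.2).

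Members and lists (163 of 164 symbols matched, 1 not analysed here) were chosen with earlier results of these data known. Named were all members, transcripts of at least 5%, overlapping genes, and per list up to 4 highest, the lowest and called genes; 1 gene is not reported here. With 2 libraries, no gene was named for a like pattern. Alternatives covered scaling, filters, pseudocounts, units of shares and leaving out each library.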

Additional observations from a re-analysis of the deposited data

How the results depend on the processing

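Under the 7 alternatives of scaling, prior count, unit and pseudocount that recompute a gene's value, Runx2 stayed past 2-fold (1.18 to 1.78), and Runx1 (0.14 to 0.40) and Cbfb (0.24 to 0.51) stayed higher in replicate 2 and under 2-fold. Other filters decide only which genes are counted. The median of all genes was 0.26 with spike-in scaling and 0.12 or 0.15 with TPM and a pseudocount of 1 or 0.1. With posterior mean TPM, Runx1 was at 1.31 and Runx3 at 0.74 TPM. Pairs called numbered 3 to 5 with a single library, and 5 with Poisson counting intervals. List genes past 2-fold numbered 5 higher with spike-in scaling, 1 with TPM and a pseudocount of 1, 6 higher and 2 lower without a filter (82 tested), and 1 at a filter of 100 (66 tested). At a TPM limit of 2, 1 of the 4 members was expressed. With shares of posterior mean TPM, Runx1-202 and its coding form held 35.4%, the distal start of Runx1 32.7%, Runx2-203 and its form 28.3%, Runx3-201 (transcript, form and start) 6.67% and Cbfb-202 and its form 53.3%. By counts, the distal start of Runx1 held 32.6%, Runx2-203 and its form 76.5%, Cbfb-202 and its form 57.2%, Cbfb exon 3 65.4%, the long exon 5 57.2% and the Runx1 192-nt exon 39.1%. The cause of these shifts was not tested. Joining 5′ ends within 100 nt left 7.59% for the most upstream Runx2 group, and leaving out transcripts incomplete at the 5′ end, an alternative chosen after seeing the data, as were the Poisson intervals, gave its distal group 27.5%. No paired analysis was possible because there is 1 group. Low counts limit the transcript shares of Runx1 and Runx2.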

Other observations

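The TPM of Runx3 in both libraries, and of Runx2 in replicate 1, lay below the deposited TPM interval of the same gene. Over all Ensembl genes with counts, this held for 3.43% in replicate 1 and 2.97% in replicate 2, and for 6.77% and 6.25% of those with fewer than 10 counts. Among genes with at least 1000 counts, the TPM lay above the interval for 7.54% and 6.81%.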
